A study of Mus musculus with 6 samples.

Results

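The genes of glycolysis and of the response to low oxygen were followed in HK-2 cells that overexpressed USAG-1. The set held 37 genes, chosen by symbol as glycolytic enzymes, their transporters and regulators, or as parts and targets of the hypoxia-inducible factors (HIFs), and all 37 were found among the 39234 genes of the deposited table. They were read in 3 classes: 24 glycolytic genes, 4 genes for HIF subunits and oxygen sensors, and 9 HIF targets outside glycolysis. All 37 passed the filter on low counts and were among the 18188 genes tested. HK-2 is a line of immortalised human proximal tubule cells. It shares its name with the gene HK2, hexokinase 2, which is written here without a hyphen.

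The study compared 3 control libraries with 3 libraries from USAG-1-overexpressing cells. The labels give every library the genotype WT, cell line HK2, tissue kidney, and name neither an agent nor an oxygen level. According to the study's methods, overexpression in cells was by transient transfection of a plasmid. The methods list an empty plasmid vector among the constructs, but the labels do not say whether the control cells sequenced here received it. The labels number the replicates but do not say that they came from separate cultures, so p-values measure the spread between these libraries, which may be technical. Per library, 41236194 to 48699471 reads were counted in control cells and 42782931 to 45448720 in USAG-1-overexpressing cells. Levels are given as CPM, the read count of a gene relative to the size of its library after scaling by the trimmed mean of M-values (TMM). A gene is called when the quasi-likelihood test of edgeR gave an adjusted p under 0.05, by Benjamini-Hochberg over all genes tested. CPM does not correct for transcript length, so levels are compared between libraries for 1 gene and not between genes.

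Glycolysis turns glucose into pyruvate, which is either reduced to lactate and exported or oxidised in mitochondria. HIFs are dimers of an oxygen-labile alpha subunit, such as HIF1A or EPAS1, and a stable partner, ARNT. In the presence of oxygen, prolyl hydroxylases of the EGLN family mark the alpha subunit for destruction through VHL, so that HIF activity is set mostly by protein stability. In low oxygen the dimers switch on most glycolytic genes, and also genes for blood vessel growth, pH control and collagen maturation. The mature proximal tubule relies on oxidative metabolism, whereas cultured tubule lines use more glycolysis.

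SOSTDC1, the gene for USAG-1, was counted 79, 80 and 60 times in control cells and 5072, 3907 and 4438 times in overexpressing cells, in accord with the labels. Of the kidney epithelial markers, KRT8, KRT18 and PAX8 were well above the floor in all libraries, whereas CDH1 was near 0. PAX8 was also higher with USAG-1 overexpression (log2 fold change 0.26, adjusted p = 0.0114). Of the markers of the mature proximal tubule, LRP2 had no count in any library, which allows up to 0.0616 to 0.0728 CPM (3 counts, counting error only). CUBN and AQP1 averaged at most 0.208 CPM, whereas GGT1 was well expressed and higher with USAG-1 overexpression (104.5 ± 17.0 against 153 ± 14.2 CPM, SD, n = 3 each, adjusted p = 0.0208). Some measures of other kinds moved with the group. All 14 markers of T and NK cells were lower in USAG-1-overexpressing cells, with a summed level of 97.5 to 117 CPM in control libraries and 9.96 to 13.8 CPM in the others, and mitochondrially encoded genes took 4.80% to 5.59% of the counts in control libraries and 1.504% to 1.55% in the others. LYZ was lower among 8 myeloid markers, and no marker of B cells or of platelets and erythroid cells was called. Some of these were present and varied widely between replicates. HBB had 144, 3475 and 134 counts in control libraries and 2368, 90 and 344 in the others. S100A8 had 120, 95 and 980 counts in control libraries and 102, 707 and 430 in the others. The part of these in the results that follow was not tested. In bulk RNA, fewer cells of a type and less RNA per cell cannot be told apart. The third control library stood apart from the others in its group. Its counts differed from those of the other controls by a chi-square of 42.3 and 42.7 per degree of freedom, against 6.52 between those 2 controls and 7.66 to 8.35 between the overexpressing libraries. Results that turn on it are given with and without it.

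Among the 37 genes, 13 were called, 6 of them higher and 7 lower in USAG-1-overexpressing cells. That is 35.1% of the set, where 15.9% of all genes tested were called (8.95% higher, 6.91% lower). The set was chosen with earlier results of these data known, so the gap between these shares is a description and was not tested. Among the called genes, the direction differed by class. Both HIF alpha subunits rose, the 4 called targets outside glycolysis all fell, and the 7 called glycolytic genes were split into 4 that rose and 3 that fell. The targets did not fall as a class. Over all 9, called or not, 5 estimates were positive and 4 negative, with a median log2 fold change of 0.09. In 21 of the 37 genes the groups did not overlap, and this held for 37.6% of all genes tested. Without control replicate 3, 26 of the 37 genes were called, 16 higher and 10 lower, where 27.0% of all genes were. Leaving out control replicate 2 gave 7 called genes, and leaving out 1 overexpressing library gave 6 (replicate 1) or 5 (replicate 2 or 3). Without control replicate 1, HK2, PFKM, PFKP, PDK1 and VEGFA lost the call, and PFKL and PGK1 gained it. The share over all genes tested fell as well, to 10.2% and 8.74% without control replicates 1 and 2. It fell to 6.92%, 5.98% and 7.09% without overexpressing library 1, 2 and 3.

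**Figure D1:**
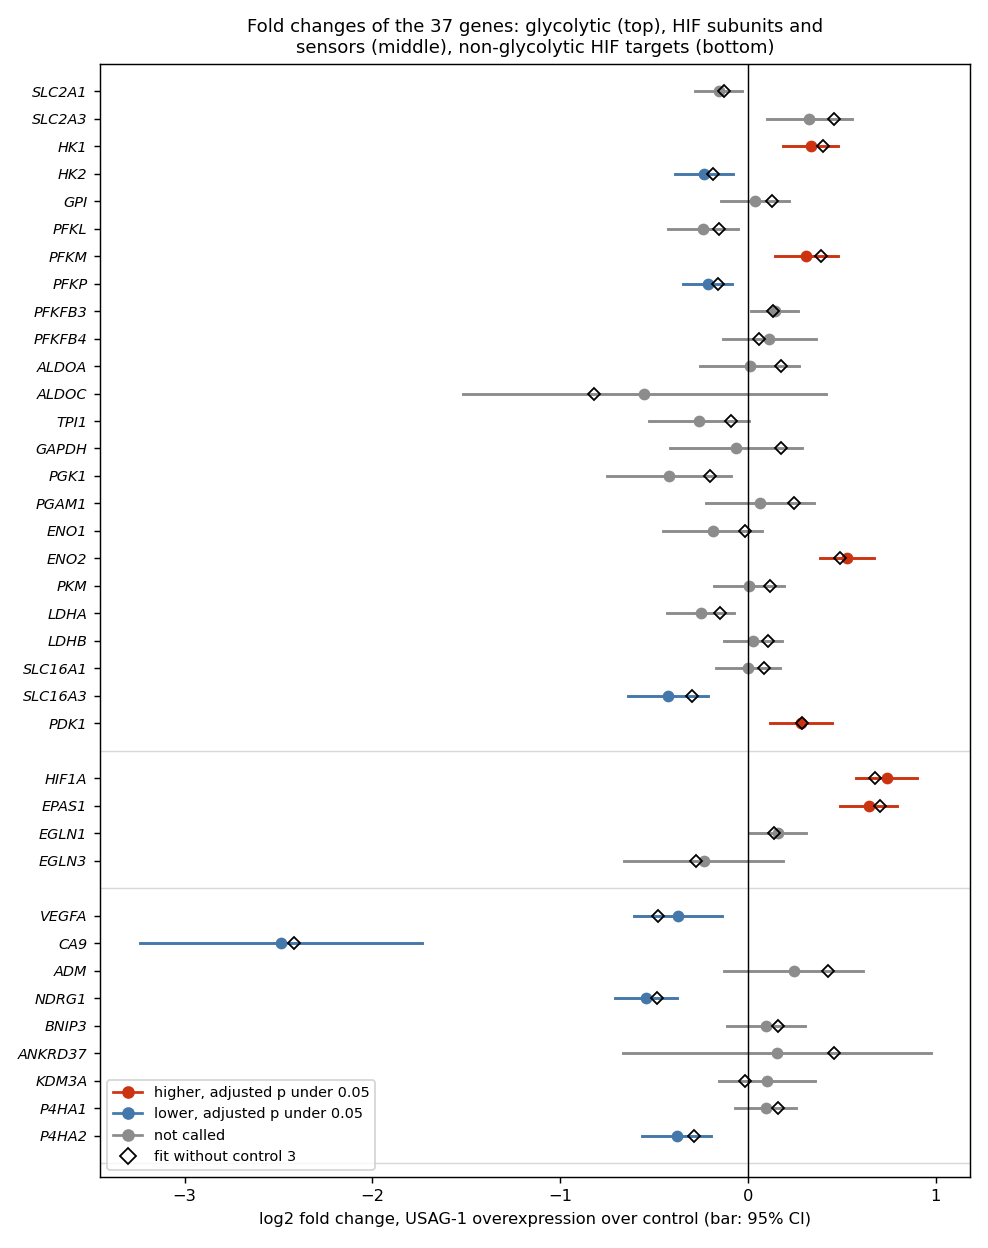
Log2 fold change of each of the 37 genes, with USAG-1 overexpression over control on the x axis. Filled points and bars give the estimate and its 95% confidence interval from all 6 libraries, coloured by the call, and open diamonds give the estimate without control replicate 3. HIF1A and EPAS1 lie to the right of 0 and CA9 far to the left, whereas GAPDH, ALDOA, PGAM1 and PKM lie near 0 with wide intervals and shift to the right without control replicate 3.

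Transcripts of both oxygen-labile HIF subunits were higher in USAG-1-overexpressing cells. HIF1A (ENSG00000100644; hg38 chromosome 14, 61695513 to 61748258) had 667, 650.4 and 568 CPM in the 3 control libraries and 1065, 1075 and 1004 CPM in the overexpressing libraries. Every overexpressing library was above every control library, and the gap was larger than the spread within either group. The fold was 1.67 (log2 fold change 0.74, SE 0.07, adjusted p = 7.47e-04). EPAS1 (ENSG00000116016; chromosome 2, 46293667 to 46386696), the alpha subunit that is more restricted to certain cell types, had 165, 169.5 and 186 CPM in control cells and 268, 283 and 261 CPM with USAG-1 overexpression. Again the groups did not overlap. Its fold was 1.56 (log2 fold change 0.64, SE 0.07, adjusted p = 9.56e-04). Both calls held in all 14 alternatives, and without control replicate 3 the log2 fold changes were 0.68 and 0.70. HIF1A overlaps antisense and other transcripts whose mean counts were at most 1.04% of its own.

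The oxygen sensors were not called. EGLN1 (ENSG00000135766), the main prolyl hydroxylase for the HIF alpha subunits, had 83.5, 81.5 and 78.1 CPM in control cells and 96.4, 89.7 and 85.4 CPM with USAG-1 overexpression. The groups did not overlap, but the log2 fold change of 0.16 had an adjusted p of 0.143, with a 95% confidence interval of 0.01 to 0.31. EGLN3 (ENSG00000129521), a hydroxylase that HIF itself induces, had 5.92, 7.98 and 6.31 CPM in control cells and 5.10, 6.94 and 5.14 CPM in the other group. These values overlapped, and the interval of its log2 fold change ran from -0.66 to 0.19.

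Of the 9 HIF targets outside glycolysis, 4 were called lower and none higher (44.4% called, against 15.9% of all genes tested). The largest difference was in CA9 (ENSG00000107159; chromosome 9, 35673928 to 35681159), a membrane carbonic anhydrase that is among the most HIF-dependent genes and is widely read as a marker of hypoxia. Its counts were 99, 186 and 149 in control cells and 33, 15 and 28 in overexpressing cells, which is 2.37, 3.77 and 3.49 CPM against 0.719, 0.344 and 0.649 CPM. It was thus a low-level gene in all 6 libraries, and the groups were far apart. The level was 5.61-fold lower with USAG-1 overexpression (log2 fold change -2.49, SE 0.33, adjusted p = 0.00252). CA9 overlaps ARHGEF39 on the other strand, which had 652% as many counts and a log2 fold change of -0.32 that was not called (adjusted p = 0.0558). The libraries were strand-specific according to the labels, but whether the counting used strand is not given in the sources used here, so a share of CA9 counts may belong to that gene.

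NDRG1 (ENSG00000104419), a stress-response gene induced by hypoxia in many cell types, had 169, 162 and 185 CPM in control cells and 126, 113 and 115 CPM with USAG-1 overexpression. The highest overexpressing library was well below the lowest control. The log2 fold change was -0.54 (SE 0.07, adjusted p = 0.00262). The calls of CA9 and NDRG1 held in all 14 alternatives.

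P4HA2 and VEGFA were lower by less, and with less certainty. P4HA2 (ENSG00000072682; chromosome 5, 132190147 to 132295315), a catalytic subunit of the collagen prolyl hydroxylase, had 80.3, 76.4 and 92.7 CPM in control cells and 63.2, 64.3 and 64.0 CPM with USAG-1 overexpression. The log2 fold change was -0.38 (SE 0.08, adjusted p = 0.0157). It lost significance when any of the overexpressing libraries was left out (adjusted p up to 0.0755). It also overlaps SLC22A4 on the other strand, which held 11.5% as many counts and was itself lower (log2 fold change -1.20, adjusted p = 0.00164). VEGFA (ENSG00000112715; chromosome 6, 43770184 to 43786487), the principal growth factor for blood vessels, had 152, 144 and 114 CPM in control cells and 107, 102 and 106 CPM in the other group. Control replicate 3 lay much closer to the overexpressing libraries than the other controls did. The log2 fold change was -0.37 (SE 0.10, adjusted p = 0.0414) and became -0.48 (adjusted p = 9.71e-05) without control replicate 3. VEGFA lost significance in 8 of 14 alternatives, among them leaving out any other library and scaling by library size alone.

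The other 5 targets were not called. ADM, the vasodilator peptide adrenomedullin, had 6.68, 8.00 and 10.2 CPM in control cells and 10.02, 9.55 and 9.89 CPM with USAG-1 overexpression, and was called only without control replicate 3 (log2 fold change 0.42, adjusted p = 0.0424) among the alternatives. P4HA1, the paralogue of P4HA2, had 84.0, 89.4 and 97.3 CPM against 95.9, 99.98 and 92.9 CPM and a log2 fold change of 0.09, which became 0.16 (adjusted p = 0.0409) without control replicate 3. BNIP3, a mitophagy receptor, had a log2 fold change of 0.10 with an interval of -0.11 to 0.30. KDM3A, a histone demethylase, had 45.5 CPM in control replicate 3 and between 58.4 and 62.4 CPM in every other library. ANKRD37 was a low gene, with 29 to 56 counts per library. It overlaps UFSP2 on the other strand, which had 984% as many counts and a log2 fold change of 0.44 that was not called (adjusted p = 0.055). Over the 9 targets the median log2 fold change was 0.09, against -0.02 over all genes tested, and it was -0.02 without control replicate 3.

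**Figure D2:**
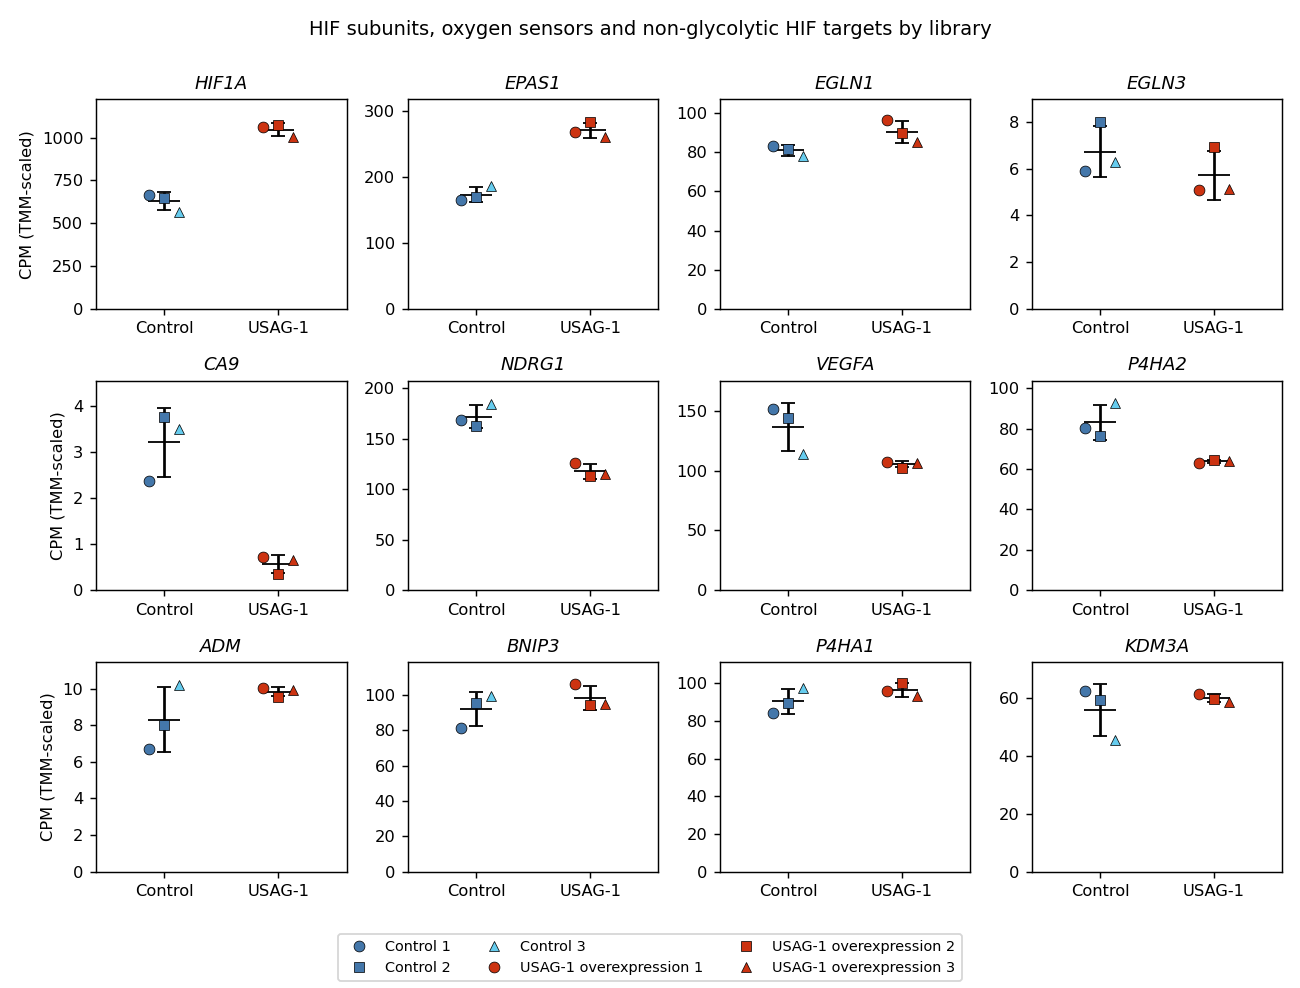
Level in TMM-scaled CPM (y axis, from 0) of 12 genes in each library, with the mean and SD of each group as bars (n = 3). HIF1A and EPAS1 are higher in all 3 USAG-1-overexpressing libraries, whereas CA9, NDRG1, VEGFA and P4HA2 are lower in all 3, and ADM, BNIP3, P4HA1 and KDM3A overlap.

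The glycolytic genes did not move as a block. Of the 24, HK1, PFKM, ENO2 and PDK1 rose, HK2, PFKP and SLC16A3 fell, and 17 were not called. That is 29.2% called, against 15.9% of all genes tested. The median log2 fold change was 0.00, with 12 positive and 12 negative. Without control replicate 3, 18 were called, 12 higher and 6 lower, where 27.0% of all genes were. The median was then 0.09. The joint share of the 24 genes in all counts was 2.74 ± 0.379% in control cells and 2.61 ± 0.0524% in USAG-1-overexpressing cells (SD, n = 3 each). The wide spread of the controls came from a single library. The summed level was 24636, 25108 and 33203 CPM in the controls and 25225, 26603 and 25986 CPM in the overexpressing libraries.

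At the entry of the pathway, the glucose transporters were not called. SLC2A1, the basal glucose transporter, had 587, 604 and 622 CPM in control cells and 524, 565 and 537 CPM in USAG-1-overexpressing cells (log2 fold change -0.16, adjusted p = 0.0875). SLC2A3, a transporter of high affinity, had 60.2, 57.6 and 75.1 CPM against 81.7, 80.7 and 79.3 CPM (log2 fold change 0.33, adjusted p = 0.0604). In neither gene did the groups overlap, and the directions were opposite. Both were called without control replicate 3, SLC2A1 lower (-0.13, adjusted p = 0.0305) and SLC2A3 higher (0.46, adjusted p = 1.47e-04). With all libraries, DESeq2's Wald test also called SLC2A1 (adjusted p = 0.042) and SLC2A3 (adjusted p = 0.022). In edgeR, SLC2A3 was called with library sizes alone (adjusted p = 0.0273) and with at least 10 counts in every library (adjusted p = 0.0493).

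The hexokinases, which trap glucose in the cell, moved apart. HK1 (ENSG00000156515; chromosome 10, 69269984 to 69401884), the broadly expressed form, had 239.8, 248 and 274 CPM in control cells and 311, 319.5 and 329 CPM with USAG-1 overexpression. The log2 fold change was 0.33 (SE 0.06, adjusted p = 0.0118). HK2 (ENSG00000159399; chromosome 2, 74834127 to 74893359), the inducible form and a HIF target, had 48.9, 46.7 and 51.9 CPM in control cells and 40.2, 41.6 and 43.5 CPM in the other group. Its log2 fold change was -0.23 (SE 0.07, adjusted p = 0.0497), at the edge of the threshold. The call of HK1 was lost without control replicate 2 or overexpressing library 2 or 3 (adjusted p up to 0.0643), and that of HK2 in 10 of 14 alternatives, including the removal of any library except control replicate 3. GPI, which isomerises glucose 6-phosphate, overlapped between the groups (log2 fold change 0.04, interval -0.14 to 0.22), and was called higher without control replicate 3 (0.13, adjusted p = 0.0427).

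Phosphofructokinase, the committing step, is built from 3 subunit types. The estimate was higher for PFKM and lower for PFKP and PFKL. PFKM (ENSG00000152556; chromosome 12, 48105139 to 48146404), the muscle type, had 89.0, 88.2 and 103 CPM in control cells and 112, 118 and 117 CPM with USAG-1 overexpression (log2 fold change 0.31, SE 0.07, adjusted p = 0.0256). PFKP (ENSG00000067057; chromosome 10, 3066333 to 3137718), the platelet type, had 439, 433 and 479.6 CPM against 380, 391 and 392 CPM (log2 fold change -0.22, SE 0.06, adjusted p = 0.0392). PFKL, the liver type, had 180.0, 201 and 222 CPM against 163, 174 and 173 CPM, and its log2 fold change of -0.24 was not called (adjusted p = 0.0835), although it was called without control replicate 1 (-0.31, adjusted p = 0.0393) and by DESeq2's Wald test (-0.25, adjusted p = 0.0374). PFKM overlaps SENP1 on the other strand, whose mean count was 35.3% of its own. PFKM and PFKP lost significance on removal of any library except control replicate 3 (adjusted p up to 0.109 and 0.161). PFKP also lost it without a filter on low counts and with a replicate block. PFKFB3 and PFKFB4, which make the allosteric activator of phosphofructokinase, had log2 fold changes of 0.14 (interval 0.02 to 0.27) and 0.11 (interval -0.13 to 0.36). Only PFKFB3 was called without control replicate 3 (0.13, adjusted p = 0.0388). PFKFB4 overlaps UCN2 on the same strand, which had 53.3% as many counts and a log2 fold change of 0.52 that was not called (adjusted p = 0.772).

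From aldolase to pyruvate, the values of the abundant enzymes turned on control replicate 3. GAPDH, which the study used as its reference gene in RT-qPCR, had 5912, 5929 and 9024 CPM in control cells and 6271, 6992 and 6692 CPM in USAG-1-overexpressing cells. The third control was 1.52-fold above the mean of the other controls, and the overexpressing libraries lay between. The log2 fold change was -0.06 (interval -0.42 to 0.29) with all libraries, and 0.17 (SE 0.04, adjusted p = 0.011) without control replicate 3. The same library was 1.48-fold above the other controls for PGK1, 1.39-fold for PGAM1, 1.37-fold for ENO1, 1.36-fold for TPI1, 1.35-fold for ALDOA and 1.23-fold for PKM. It was the highest of the 6 libraries in 16 of the 24 glycolytic genes (66.7%), and in 25.5% of all genes tested. It was the highest in none of the 4 HIF subunit and sensor genes, and in 4 of the 9 other targets.

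With all libraries, none of ALDOA, TPI1, GAPDH, PGK1, PGAM1, ENO1 and PKM was called. PGK1, which makes the first ATP of the pathway, had 910.1, 1004 and 1410 CPM in control cells and 805, 833 and 845 CPM with USAG-1 overexpression (log2 fold change -0.42, adjusted p = 0.0868). TPI1 had 1101, 1145 and 1531 CPM against 1034, 1051 and 1064 CPM (log2 fold change -0.26, adjusted p = 0.169). In both genes every overexpressing library was below every control. Without control replicate 3, PGK1 was lower (-0.20, adjusted p = 0.00845), and ALDOA (0.17, adjusted p = 0.0102), PGAM1 (0.25, adjusted p = 0.00237) and PKM (0.12, adjusted p = 0.00791) were higher. TPI1 (-0.09, adjusted p = 0.0508) and ENO1 (-0.015, adjusted p = 0.667) were not called. PGK1 was also called without control replicate 1 (-0.54) and by DESeq2's Wald test. Pseudogenes named after GAPDH, PGAM1, PGK1, ENO1 and PKM held at most 0.211% as many counts as the genes themselves, and those of TPI1 held 3.12%. ALDOA overlaps another gene on the same strand, ENSG00000285043, which had 12.2% as many counts.

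ENO2 (ENSG00000111674; chromosome 12, 6913745 to 6923696), the enolase best known from neurons and also a HIF target, was the glycolytic gene with the largest rise. It had 65.9, 68.3 and 61.3 CPM in control cells and 95.6, 93.9 and 92.1 CPM in USAG-1-overexpressing cells. Here control replicate 3 was the lowest library, not the highest. The fold was 1.44 (log2 fold change 0.53, SE 0.06, adjusted p = 0.00164), and the call held in all 14 alternatives. ALDOC, the brain aldolase, had the largest fall in the estimate (log2 fold change -0.55), but with 21 to 62 counts per library its interval ran from -1.52 to 0.42, and it lies on the same strand as RSKR, a gene with 582% of its counts.

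**Figure D3:**
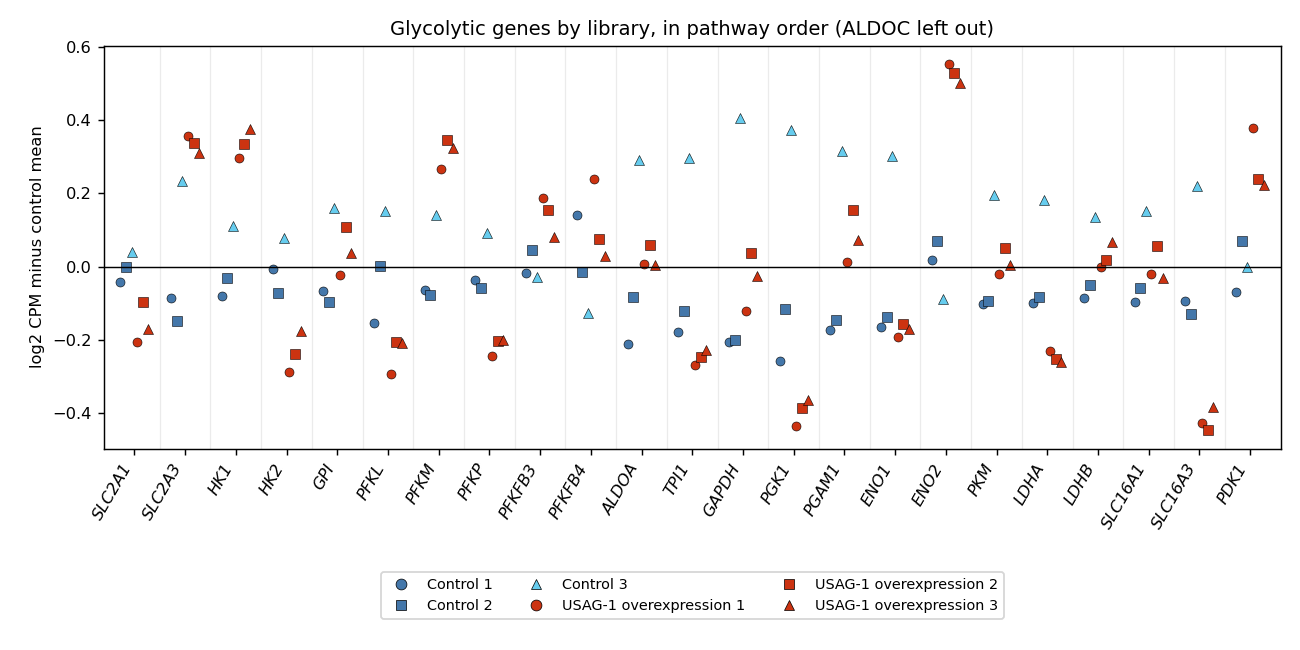
Log2 CPM of 23 glycolytic genes in each library, as the difference from the mean of the 3 controls (y axis), with genes in pathway order on the x axis. Control replicate 3 (light triangle) lies above the other controls for most genes from ALDOA to SLC16A3, ENO2 excepted, and the 3 USAG-1-overexpressing libraries differ less among themselves there.

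At the exit of the pathway, 1 gene for lactate export fell and the genes for making lactate were not called. SLC16A3 (ENSG00000141526; chromosome 17, 82217934 to 82240086), the lactate exporter of glycolytic cells and a HIF target, had 237, 231 and 295 CPM in control cells and 188, 186 and 194 CPM with USAG-1 overexpression. All overexpressing libraries were below all controls. The log2 fold change was -0.43 (SE 0.09, adjusted p = 0.019), and -0.30 (adjusted p = 5.16e-04) without control replicate 3. It lost significance when any overexpressing library was left out (adjusted p up to 0.0926). SLC16A3 overlaps CSNK1D on the other strand, which had 85.6% as many counts and a log2 fold change of 0.05.

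SLC16A1, the transporter that carries lactate in either direction, had 259.8, 267 and 309 CPM against 274, 289 and 272 CPM, a log2 fold change of -0.0011 (interval -0.17 to 0.17). LDHA, the lactate dehydrogenase subunit that HIF induces, had 1558, 1575 and 1892 CPM in control cells and 1422, 1400 and 1395 CPM with USAG-1 overexpression. The groups did not overlap, and the log2 fold change of -0.25 had an adjusted p of 0.0631. LDHB, the subunit of oxidative tissues, had 958, 982 and 1118 CPM against 1017, 1030 and 1067 CPM (log2 fold change 0.03, interval -0.13 to 0.18). Without control replicate 3, LDHA was lower (-0.15, adjusted p = 0.00193) and LDHB higher (0.10, adjusted p = 0.04). With all libraries, LDHA was also called lower by DESeq2's Wald test (adjusted p = 0.02). In edgeR, it was called with library sizes alone (adjusted p = 0.0324) and with at least 10 counts in every library (adjusted p = 0.045).

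PDK1 (ENSG00000152256; chromosome 2, 172555373 to 172595969), the kinase that holds pyruvate out of mitochondria by switching off pyruvate dehydrogenase, is a HIF target that rose. It had 38.2, 42.0 and 40.0 CPM in control cells and 52.1, 47.2 and 46.7 CPM in USAG-1-overexpressing cells (log2 fold change 0.28, SE 0.07, adjusted p = 0.0328). The call was lost in 7 of 14 alternatives, including the removal of any library except control replicate 3 (adjusted p up to 0.134).

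The log2 ratio of counts between paralogues was also taken within each library, which does not depend on how libraries are scaled. It rests on the same counts as the tests of single genes and is given as a description. In all, 12 pairs were compared, each with a two-sided exact permutation test, for which 3 libraries against 3 allow no p below 0.1 (0.171 here after adjustment over the 12 pairs), so that no pair could pass the threshold. In 7 pairs the groups did not overlap. No such share was taken over other pairs of genes, and single genes did not overlap in 37.6% of all genes tested. The count of pairs therefore has no reference of its own. Both partners were called in HK2 to HK1 and PFKP to PFKM, and neither was called in LDHA to LDHB and SLC2A3 to SLC2A1. The log2 ratio of HK2 to HK1 was -2.37 ± 0.064 in control cells and -2.94 ± 0.0179 in USAG-1-overexpressing cells (SD, n = 3 each), a difference of -0.57 that ranged from -0.59 to -0.53 when each library was left out. PFKP to PFKM differed by -0.53 (2.27 ± 0.0434 against 1.75 ± 0.0191), and LDHA to LDHB by -0.28 (0.714 ± 0.0403 against 0.438 ± 0.0485). For SLC16A3 to SLC16A1 the difference was -0.42, for P4HA2 to P4HA1 it was -0.47, and for SLC2A3 to SLC2A1 it was 0.49. ENO2 to ENO1 differed by 0.70, and by 0.51 without control replicate 3. Each of these differences was larger than the SD of either group, the widest of which was 0.337, in the controls for the enolases.

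The other 5 ratios overlapped between groups. EPAS1 to HIF1A was -1.86 ± 0.216 in control cells and -1.95 ± 0.034 in USAG-1-overexpressing cells, a difference of -0.10 that ranged from -0.18 to 0.03 when each library was left out. PFKP to PFKL, both lower in the estimate, differed by 0.02, and PFKFB4 to PFKFB3 by -0.03. EGLN3 to EGLN1 differed by -0.40 (exact permutation p = 0.2). ALDOC to ALDOA differed by -0.49, and ranged from -0.97 to -0.03 when a library was left out.

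**Figure D4:**
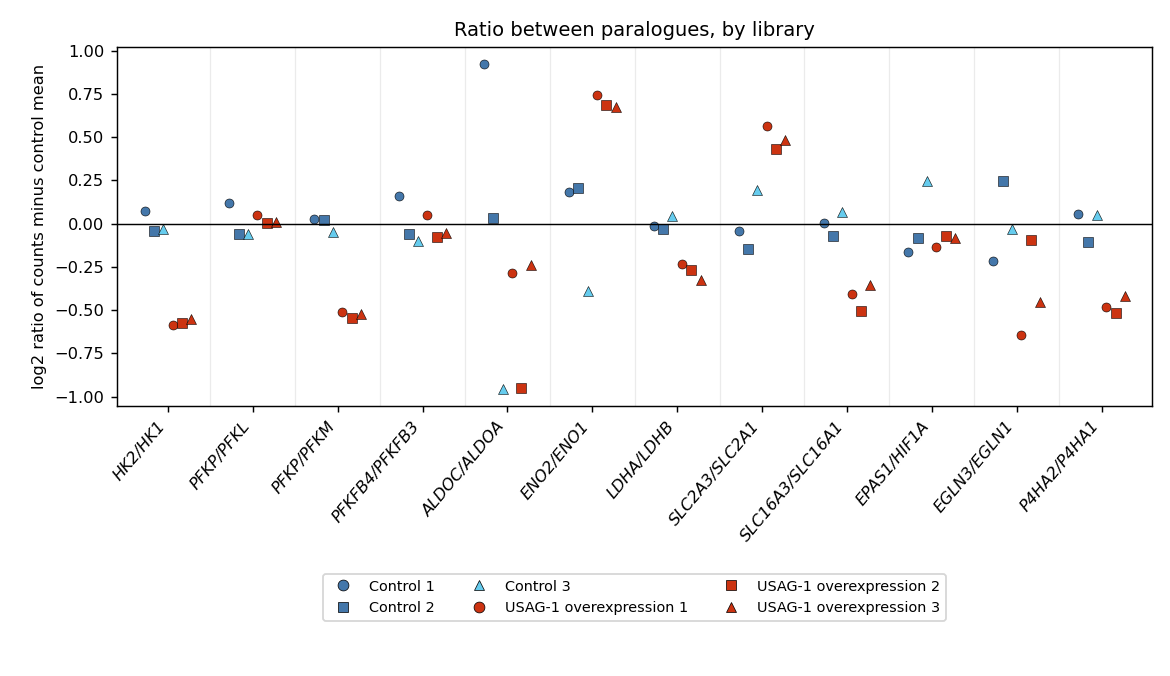
Log2 ratio of counts between paralogues in each library, as the difference from the mean of the 3 controls (y axis), for 12 pairs (x axis). The 3 USAG-1-overexpressing libraries lie below all controls for HK2/HK1, PFKP/PFKM, LDHA/LDHB, SLC16A3/SLC16A1 and P4HA2/P4HA1, and above them for ENO2/ENO1 and SLC2A3/SLC2A1.

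Around the core set, partners and regulators of HIF were read from a list of 19 genes, of which 18 were tested and 5 called (27.8%, against 15.9% of all genes). EP300 and CREBBP, coactivators that HIF and many other factors share, rose by 0.43 (SE 0.06, adjusted p = 0.00236) and 0.33 (SE 0.05, adjusted p = 0.00635) on the log2 scale. CITED2, a HIF-induced protein that competes with HIF for these coactivators, rose from 361 ± 32.5 to 503 ± 26.7 CPM (SD, n = 3 each; log2 fold change 0.48, adjusted p = 0.00528). These 3 calls held in all 14 alternatives. VHL, which targets hydroxylated HIF for destruction, was lower, with 37.6, 40.1 and 45.7 CPM against 31.5, 30.9 and 35.1 CPM (log2 fold change -0.34, adjusted p = 0.0392), and ARNT2 was lower at about 1 CPM in control cells (log2 fold change -1.29, adjusted p = 0.0262). VHL and ARNT2 lost significance without control replicate 2 or any overexpressing library, and ARNT2 also without control replicate 1. VHL also lost it without a filter on low counts, and ARNT2 with a replicate block. The common partner ARNT, named here for its role after its value was seen, was not called (log2 fold change 0.20, adjusted p = 0.0667). As over all genes, the number called moved with the libraries used. It was 9 without control replicate 3 (27.0% of all genes), and 3 without control replicate 2 (8.74%) or any 1 overexpressing library (5.98% to 7.09%).

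A longer list of 40 HIF targets had 38 tested genes, with a median log2 fold change of -0.03. Of these, 16 were called (42.1%, against 15.9% of all genes). Of the 16, 6 were higher and 10 lower, where 8.95% of all genes were called higher and 6.91% lower. Among the lower genes were LOXL2, a lysyl oxidase that cross-links collagen (1116 ± 16.5 against 820 ± 31.6 CPM, log2 fold change -0.45, adjusted p = 0.00146) and SPAG4 (8.71 ± 1.24 against 3.62 ± 0.846 CPM, log2 fold change -1.26, adjusted p = 0.00528). Among the higher ones were BHLHE41, a repressor of the circadian clock (13.9 ± 0.214 against 24.5 ± 1.57 CPM, log2 fold change 0.82, adjusted p = 9.32e-04), PPP1R3B, which directs a phosphatase to glycogen (log2 fold change 0.44, adjusted p = 0.00249), and GYS1, glycogen synthase (log2 fold change 0.33, adjusted p = 0.00986). The calls of these 5 genes held in all 14 alternatives, except for GYS1, which lost significance without USAG-1 overexpression replicate 2. The number called was 19 without control replicate 3 (27.0% of all genes), 10 and 9 without control replicates 1 and 2 (10.2% and 8.74% of all genes), and 7, 6 and 6 without USAG-1 overexpression replicates 1, 2 and 3 (6.92%, 5.98% and 7.09% of all genes).

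Of 33 further genes of glycolysis and gluconeogenesis, 20 were tested and 7 called, 4 higher and 3 lower (35.0%, against 15.9% of all genes). HKDC1, a hexokinase-like enzyme, had 166, 171 and 169.6 CPM in control cells and 243, 257 and 247 CPM in USAG-1-overexpressing cells (log2 fold change 0.56, SE 0.05, adjusted p = 6.20e-04). SLC16A7, a pyruvate and lactate transporter, rose by 0.55 and PGM1, which links glycogen to glycolysis, by 0.34 on the log2 scale. ENO3, the muscle enolase, fell by 0.55, ADPGK, an ADP-dependent glucokinase, by 0.36, and SLC37A4, the glucose 6-phosphate translocase, by 0.34. The calls of HKDC1, SLC16A7 and ENO3 held in all 14 alternatives. PGM1, ADPGK and SLC37A4 each lost significance without USAG-1 overexpression replicate 1. PGM1 and SLC37A4 also lost it without control replicate 2 or overexpression replicate 2 or 3. SLC37A4 lost it in 8 of 14 alternatives in all. The others were control replicate 1 left out, library sizes alone, no filter on low counts and a replicate block. The number called was 3 without USAG-1 overexpression replicate 1 (6.92% of all genes). It was 4 without replicate 2 or 3 of that group (5.98% and 7.09%) or control replicate 2 (8.74%). Of 12 genes for pyruvate entry into mitochondria, 3 were called, all higher. That is 25.0%, against 15.9% of all genes called in either direction and 8.95% called higher. With log2 fold changes, the 3 were DLAT (0.35) and DLD (0.23), which are subunits of pyruvate dehydrogenase, and PDK2 (0.61), a kinase that inhibits it. The call of DLAT was lost without overexpressing library 1 or 3, that of PDK2 without library 1 or 2, and that of DLD on removal of any library except control replicate 3. DLD lost significance in 9 of 14 alternatives in all. The others were DESeq2's size factors, limma-voom, no filter on low counts and a replicate block. The number called was 6 without control replicate 3 (27.0% of all genes), 2 without control replicate 1 or 2 (10.2% and 8.74%), and at most 1 when an overexpressing library was left out (5.98% to 7.09%).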

How the data were processed

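Transcriptomes were measured in 6 libraries of HK-2 cells, 3 control and 3 with USAG-1 overexpression, grouped by sample label. The authors deposited whole-number counts of reads per gene, not normalized, in a table named for FPKM. The submitters' processing notes name hg38, cutadapt 1.9 and FastQC. The aligner, the counting tool and its use of strand are not given in the sources used here. The organism label reads mouse, but the line and the gene identifiers are human. No human sequence was used here, so no promoter or protein was read and transcript length was not corrected for.

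After filterByExpr and TMM scaling, the quasi-likelihood test of edgeR was run without a replicate block, with p adjusted by Benjamini-Hochberg over 18188 genes, which held 99.9% of the counts. The study's methods name DESeq2, run here as an alternative. The standard error (SE) was taken from the log2 fold change over the root of its F statistic, and intervals are at 95%. Ratios used counts plus 0.5. The members and lists were chosen with earlier results of these data known. Called members, HIF subunits and sensors, the member of each class with the largest rise and fall, and up to 3 called genes per direction of each further list were described in full. Other members were named for their role. Some genes of the further lists that this rule or a marker list would name are not reported here. Alternatives were other scalings (DESeq2's size factors, library sizes alone, mitochondrially encoded genes left out), DESeq2's Wald test, limma-voom, other filters on low counts, a replicate block, and each library left out. The code was tested on simulated data. Software was R 4.3.3, edgeR 4.0.16, limma 3.58.1 and DESeq2 1.42.0.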

Additional observations from a re-analysis of the deposited data

How the results depend on the processing

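Of the 13 called genes, 5 (HIF1A, EPAS1, CA9, NDRG1 and ENO2) kept the call in all 14 alternatives, 8 lost it in at least 1, and none changed sign. Of the 24 genes not called, 14 were called in at least 1 alternative and 9 changed sign. The number of called genes among the 37 ranged from 5 to 26 when a library was left out, while the share called over all genes ranged from 5.98% to 27.0%. That share was 20.7% with DESeq2's Wald test and 6.26% without a filter on low counts. For glycolytic genes it ranged from 1 to 18, and it was 12 with DESeq2's Wald test, 4 without a filter on low counts and 4 with a replicate block. For targets outside glycolysis it ranged from 2 to 6 when a library was left out, and for HIF subunits and sensors it stayed at 2. When a library was left out, the median log2 fold change of glycolytic members ranged from -0.069 to 0.0946, and the median log2 fold change of non-glycolytic HIF targets from -0.0253 to 0.077; in the other alternatives the latter was 0.0847 to 0.1111. In the further lists, the number ranged from 3 to 7 (glycolysis and gluconeogenesis), 0 to 6 (pyruvate entry), 3 to 9 (HIF partners, 8 with DESeq2's Wald test) and 6 to 19 (HIF targets, 10 without a filter). The cause of these shifts was not tested.

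Among genes near 0, SLC16A1 was at 0.0175 with library sizes alone, 0.0015 with mitochondrially encoded genes left out, 0.0028 with limma-voom and 0.0026 with a replicate block, and PKM at -0.0027 with at least 10 counts in every library. When a library was left out, log2 fold changes that turned sign ranged from -0.0471 to 0.0854 (SLC16A1), -0.0909 to 0.17 (ALDOA), -0.0212 to 0.25 (PGAM1), -0.0445 to 0.12 (PKM), -0.0155 to 0.10 (LDHB), -0.0253 to 0.46 (ANKRD37), -0.0104 to 0.13 (GPI), -0.17 to 0.17 (GAPDH) and -0.0167 to 0.19 (KDM3A). Ratios that turned sign ranged from -0.0087 to 0.0805 (PFKP to PFKL), -0.0757 to 0.0536 (PFKFB4 to PFKFB3) and -0.18 to 0.0259 (EPAS1 to HIF1A).

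Deviations from the group mean in same-numbered libraries had correlations of 0.07, -0.05 and 0.04. Those of differently numbered libraries ran from -0.14 to 0.11. With 3 libraries per group, these values cannot tell whether same-numbered libraries shared a culture or batch. With the replicate block, 9 of the 37 genes were called, HK2, PFKP, PDK1 and VEGFA being lost, and 13.1% of all genes. The ratio test could not go below p = 0.25 in this paired form (exact sign-flip test). The median of all genes moved by at most 0.0157 (log2) under another scaling. The planned count of promoter motifs was not run, because no human sequence was used here. Depth limits CA9, ANKRD37 and ALDOC, which had under 200 counts in every library.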
